A study of Mus musculus with 4 samples.

Results

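The fibroblast growth factor (FGF) genes examined here are 4 ligand genes (Fgf7, Fgf9, Fgf10 and Fgf18), the 4 receptor tyrosine kinase genes Fgfr1 to Fgfr4, and 2 genes of negative feedback on the pathway, Spry2 and Dusp6. They were chosen by symbol, and all 10 were found among the 52636 genes of the table. Lungs were taken whole from C57BL/6 mouse embryos at embryonic day 14.5. The Control group held 2 wild-type libraries and the Yap CKO group 2 libraries with a conditional knockout of Yap, which the series places in the epithelium. The Cre driver and the deleted exons are not given in the sources used here. Nothing in the labels says whether the 2 samples of a group came from different embryos. Sex-linked RNAs, given below, differed between the 2 controls, which were therefore not repeats of the same embryo. For the 2 Yap CKO samples this is unknown. The p-values measure the spread between these samples, and the part from Yap CKO may be technical.

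FGF ligands are secreted proteins that bind receptor tyrosine kinases together with heparan sulfate and switch on the RAS and ERK cascade. In the developing lung, FGF10 from the distal mesenchyme acts on the epithelial form of FGFR2 at the tips of the airway tree, where it drives outgrowth and branching. Signalling raises its own inhibitors, among them the Sprouty protein SPRY2 and the ERK phosphatase DUSP6. Yap is the transcriptional coactivator that the Hippo kinases restrain. It acts on DNA through TEAD factors.

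The stretch of 250 bases before the RefSeq start of Fgf10, the 1 gene of the set that passed the test below, is printed with that of Fgfr4 for comparison. Capitals mark matches to a short motif on either strand, namely the TEAD core GGAATG, the ETS core CCGGAA, the T-box core AGGTGT and the forkhead core TGTTTAC. The first pair share the letters GGAA and can overlap. The T-box and forkhead motifs were added after the sequences had been seen. Both stretches lie on the plus strand of GRCm38.p6, at chr13:118714449-118714698 for Fgf10, inside its GENCODE gene model, and chr13:55152568-55152817 for Fgfr4. The Fgfr4 stretch runs past the start of its own GENCODE gene model, at 55152640, and the marked ETS core begins at that base.
Fgf10: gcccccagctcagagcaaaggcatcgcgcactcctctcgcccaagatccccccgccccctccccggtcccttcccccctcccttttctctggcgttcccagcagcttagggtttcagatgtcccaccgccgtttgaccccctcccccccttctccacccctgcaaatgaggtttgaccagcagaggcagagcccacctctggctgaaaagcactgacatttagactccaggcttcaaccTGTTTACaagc
Fgfr4: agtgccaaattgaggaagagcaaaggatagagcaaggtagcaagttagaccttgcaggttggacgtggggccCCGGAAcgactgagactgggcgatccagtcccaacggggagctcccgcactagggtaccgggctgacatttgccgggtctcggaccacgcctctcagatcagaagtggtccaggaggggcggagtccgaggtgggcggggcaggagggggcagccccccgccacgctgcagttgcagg
RefSeq promoters were found for 9 of the 10 genes, in 10 windows because Fgfr3 has a pair of starts. No window held the TEAD letters, which 12.6% of the 32851 mouse promoter windows hold. Fgfr4 held the ETS core 178 bases before its start (12.03% of all windows). Fgf10 held the forkhead core 11 bases before its start (3.17% of all windows). The T-box core was found in 1 window of Fgfr3 (11.8% of all windows). A match is a description of these letters only.

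The 4 libraries held 17756301 to 21333878 reads counted to genes. Values are normalized counts, which are read counts divided by 1 factor per library. The Yap1 gene itself did not check the labels, since its groups overlapped, with 5686 and 3467 in the controls against 3209 and 4483 in the knockouts. Control 1 stood apart in the X-inactivation RNA Xist, at 42.6 against 42729 to 50045 in the other libraries, and in the Y-linked Ddx3y, at 1726 against 5.77 to 16.4. This is a male pattern in Control 1 and a female pattern in the other libraries, so sex differed within the Control group. Control 2 stood apart in 9 heart muscle genes, which summed to 42490 there against 1707, 9528 and 1765 in Control 1, Yap CKO 1 and Yap CKO 2. Lung epithelial markers were present in every library. 10 of them summed to 20280 and 19086 in the controls and to 18200 and 19023 in Yap CKO, with 1 called higher (Sftpc) and 1 lower (Sox2). Among the 8 lung mesenchyme markers none was called, and their sums were 100821 and 112587 against 94328 and 85094. The collagen genes Col1a1 and Col3a1 made up most of each sum.

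Fgf10 was the 1 gene of the 10 called higher in Yap CKO, at 209% of its control level. The other 9 did not pass the test. Genes were called at a Benjamini-Hochberg adjusted p under 0.05 in limma, adjusted over 19472 genes with a mean normalized count of at least 10, and all 10 FGF genes passed that filter. Over all genes 2.33% were called, 1.19% higher and 1.15% lower. These are 231 and 223 genes, so 50.9% of calls were higher, and 62% were higher when libraries were scaled to equal totals. The 2 groups did not overlap for 5 of the 10 genes, beside 50.8% of all genes tested. An unadjusted p under 0.05 was reached by 3 of the 10 (Fgf10, Fgfr3 and Dusp6), beside 18.9% of all genes. The median log2 change of the 10 was -0.031, against -0.005 over all genes. All log2 changes are Yap CKO minus Control on the log2(normalized count + 1) scale.

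**Figure D1:**
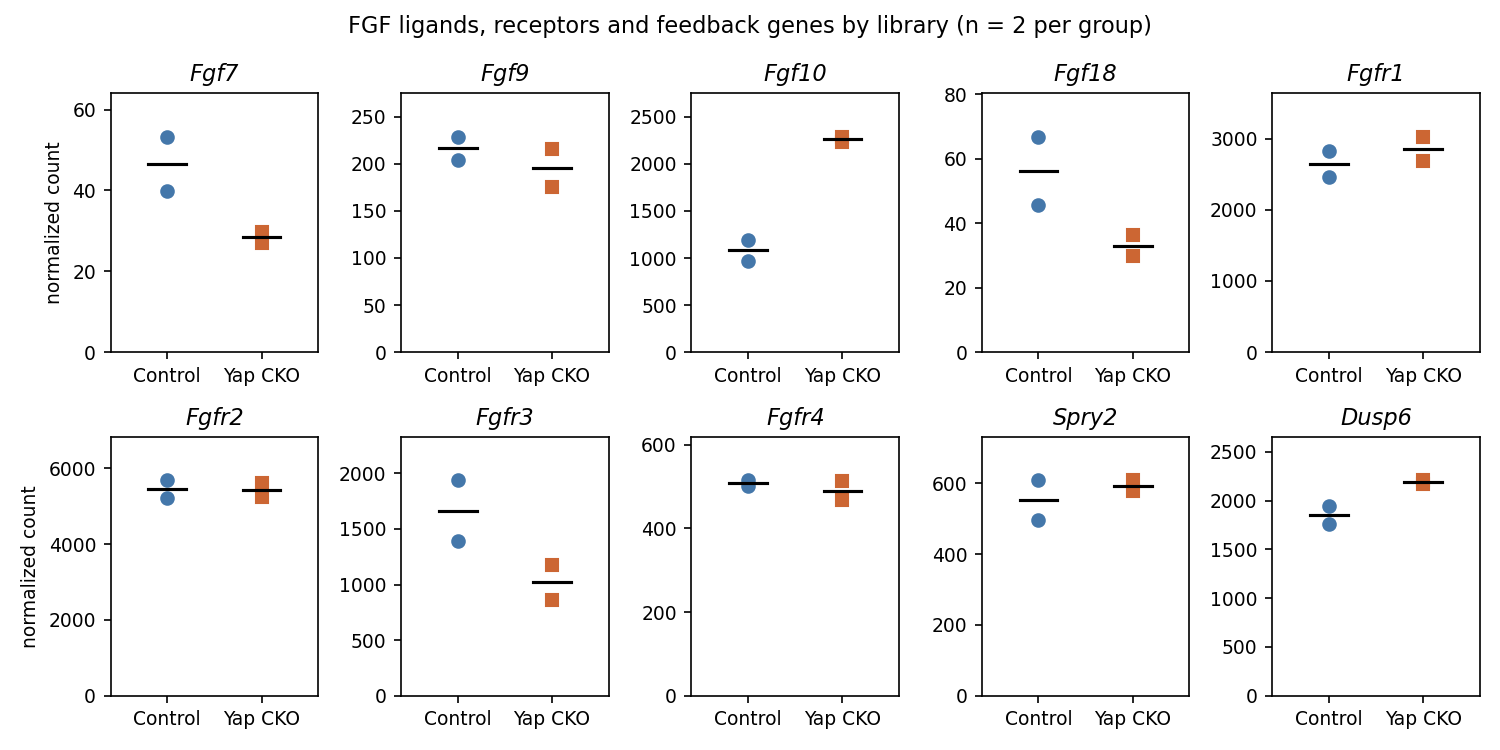
Normalized count (vertical axis, from 0) of each of the 10 FGF genes, 1 point per library, circles for Control and squares for Yap CKO, with a black line at each mean (n = 2 per group). Fgf10 stands at 1192 and 973 in Control and at 2290 and 2232 in Yap CKO, while the points of Fgfr2, Fgfr4 and Spry2 overlap.

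Fgf10 (ENSMUSG00000021732, mm10 chromosome 13, 118669791 to 118792115, plus strand) encodes the mesenchymal ligand of branching. It was measured at 1192 normalized counts in Control 1 and 973 in Control 2, against 2290 in Yap CKO 1 and 2232 in Yap CKO 2. Both knockout libraries lay above both controls, and they differed from each other by less than the controls did. The means were 1082 ± 155 and 2261 ± 41.4 (SD, n = 2). The log2 change was 1.07 ± 0.12 (SE), with a 95% interval of 0.78 to 1.36 and an adjusted p of 0.0146 (limma), the rank 86 of 19472 genes by p.

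The size of the Fgf10 change held without either library that stood apart. It was 1.22 without Control 1 and 0.92 without Control 2. Without Yap CKO 1 the change was 1.05, and without Yap CKO 2 it was 1.09. The call held without either control and ended without either knockout library. Each of these fits leaves 1 library in a group, which is then assumed to vary like the other group. Calls over the whole table likewise rose without a control and fell without a knockout library, so these fits do not decide the Fgf10 call. With all libraries, the call ended without the filter on low genes (adjusted p = 0.0603, limma) and without the intensity trend in the variance (0.108). On whole reads edgeR gave an adjusted p of 0.0162 and DESeq2 one of 1.98e-11.

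Fgf10 is made in the mesenchyme, while the series places the deletion in the epithelium. In a whole lung, more cells of a type and more RNA per cell cannot be told apart, which holds for every gene below. The 8 mesenchymal markers did not move one way, and none was called. Log2 changes were 0.44 for Pdgfra, 0.24 for Tbx4 and 0.12 for Tbx5, and -0.097 for Col3a1, -0.29 for Wnt2, -0.36 for Foxf1, -0.48 for Tcf21 and -0.61 for Col1a1. Smooth muscle genes, made by mesenchymal cells around the airways, summed to 17677 and 19619 in Control and to 7259 and 10139 in Yap CKO. Of these 6 genes 2 were called lower, beside 1.15% of all genes. Some markers of other organs also rose. Of 9 digestive tract epithelial genes 5 passed the filter and 4 were called higher. All 5 passed the filter only through their Yap CKO values, so a call could hardly be lower. The 1.19% of all genes called higher is therefore not a like comparison, and the count is a description only. The list summed to 10.7 and 11.7 in Control against 1907 and 1367 in Yap CKO. Guca2a, Reg4, Tff3, Cdx2 and Pdx1 were at 0 in both controls. Pdx1, Cdx1, Gkn1 and Vil1 stayed below the filter. Of 8 liver genes 4 passed the filter and these 4 were called higher, with list sums of 25.2 and 77.2 against 1639 and 896. Alb, Apoa1 and Ttr passed the filter only through their Yap CKO values, so this count too is a description only. Afp and Alb made up most of the sums in Yap CKO. Fga, Fgb, Serpina1a and Ahsg stayed below the filter, at 12.9 or less in every library. Their part in the value of Fgf10 was not tested.

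The other 3 ligands had lower means in Yap CKO, and none passed. Fgf7 (ENSMUSG00000027208, chromosome 2, 126034658 to 126091185) is a further mesenchymal ligand of the epithelial FGFR2. It was at 53.3 and 39.8 in Control and at 29.8 and 27.0 in Yap CKO, from 55, 34, 31 and 29 reads. Fgf7 was lower in both knockout libraries than in either control. Its log2 change was -0.68 (95% interval -1.40 to 0.042, adjusted p = 0.29, limma).

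Fgf18 (ENSMUSG00000057967, chromosome 11, 33117430 to 33147400) encodes a ligand known for its part in cartilage and in later lung growth. It was at 66.9 and 45.6 in Control and at 29.8 and 36.4 in Yap CKO, from 69, 39, 31 and 39 reads. Here too the groups did not overlap. The log2 change was -0.73 (-1.47 to 0.013, adjusted p = 0.271, limma), and the interval held 0. The Yap CKO mean was 58.8% of the control mean. Without Control 1 the change was -0.46 (adjusted p = 0.426, limma), against -1.0005 (0.0551) when Control 2 was left out. The 8 cartilage markers summed to 3529 and 4133 in Control and to 5170 and 4544 in Yap CKO, and Col2a1 and Hapln1 made up most of the sum. None of the 6 tested was called. Their changes ran from -0.72 for Cnmd to 1.72 for Acan, and their part in the value of Fgf18 was not tested.

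Fgf9 (ENSMUSG00000021974, chromosome 14, 58070547 to 58112720) is made by the mesothelium and the epithelium and signals to the mesenchyme. It was at 229 and 203 in Control against 215 and 175 in Yap CKO, with overlapping groups. Its log2 change was -0.15 (-0.57 to 0.27, adjusted p = 0.697, limma). Leaving out Yap CKO 1 gave -0.30, and leaving out Yap CKO 2 gave -0.0024. The 6 mesothelial markers summed to 4051 and 5435 in Control and to 3841 and 3124 in Yap CKO, with none called.

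Among the receptors, Fgfr1, Fgfr2 and Fgfr4 had overlapping groups, and Fgfr3 was lower in both knockout libraries without passing. No receptor was called by limma or edgeR, and 1 of the 4 had an unadjusted p under 0.05, beside 18.9% of all genes. DESeq2 called Fgfr3 lower, where 5.54% of all genes were called (2.07% in edgeR). Gene-level counts do not separate the epithelial and mesenchymal splice forms of these receptors.

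Fgfr2 (ENSMUSG00000030849, chromosome 7, 130162451 to 133123350) encodes the receptor through which FGF7 and FGF10 act on the epithelium. It was at 5685 and 5223 in Control and at 5239 and 5609 in Yap CKO. The log2 change was -0.0076 with an interval of -0.24 to 0.22 (adjusted p = 0.976, limma), and it had the other sign under equal totals (0.055). The wide span of this gene model comes with 314 exonic bases shared with Ctbp2, at 1865 to 2526 reads in that gene.

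Fgfr1 (ENSMUSG00000031565, chromosome 8, 25513654 to 25575718), a receptor of the mesenchyme for FGF9 and other ligands, was at 2458 and 2826 in Control and at 3027 and 2682 in Yap CKO. Its log2 change was 0.11 (-0.16 to 0.38, adjusted p = 0.647, limma). Fgfr4 (ENSMUSG00000005320, chromosome 13, 55152640 to 55168759) was at 501 and 516 in Control and at 467 and 513 in Yap CKO. Its log2 change was -0.054 (-0.33 to 0.22, adjusted p = 0.841), and under equal totals it was 0.0076. For each of these 2 receptors 1 knockout library fell between the controls.

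Fgfr3 (ENSMUSG00000054252, chromosome 5, 33721674 to 33737068) was the receptor with the widest difference. It was at 1939 in Control 1 and 1387 in Control 2, against 863 in Yap CKO 1 and 1174 in Yap CKO 2. Both knockout libraries lay below both controls, although Control 2 was nearer to Yap CKO 2 than to Control 1. The means were 1663 ± 390 and 1018 ± 219 (SD, n = 2), 61.2% of control. The log2 change was -0.70 ± 0.20 (SE, interval -1.19 to -0.22, adjusted p = 0.137, limma). It passed without Control 2 (-0.95, adjusted p = 2.06e-04) and in DESeq2 (adjusted p = 0.017), and not without Control 1 (-0.46, 0.0661), Yap CKO 1 (-0.48, 0.599) or Yap CKO 2 (-0.92, 0.327).

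**Figure D2:**
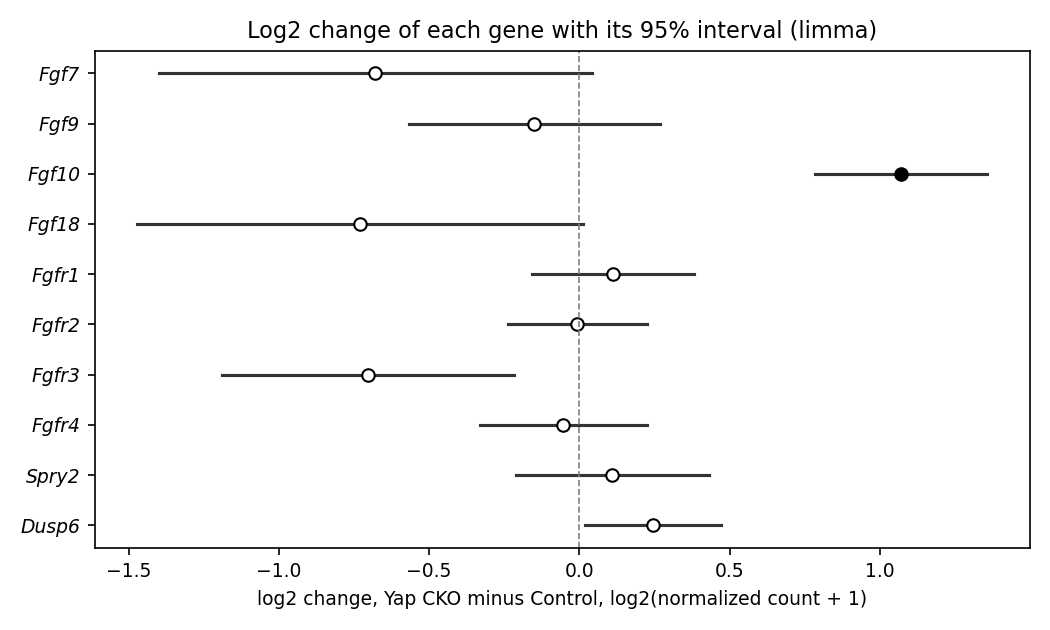
Log2 change of each FGF gene (horizontal axis, Yap CKO minus Control) with its 95% interval from limma as a line, filled where the adjusted p was under 0.05. Fgf10 at 1.07 is the one filled point, and the unadjusted intervals of Fgfr3 (-1.19 to -0.22) and Dusp6 (0.017 to 0.47) also lie to one side of 0.

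The feedback genes were not called by limma, edgeR or DESeq2, with 1 of the 2 at an unadjusted p under 0.05, beside 18.9% of all genes. Spry2 (ENSMUSG00000022114, chromosome 14, 105891947 to 105896819) encodes the Sprouty inhibitor that FGF10 induces at the epithelial tips. It was at 498 and 609 in Control and at 610 and 579 in Yap CKO. The groups overlapped, and the log2 change was 0.11 (-0.21 to 0.43, adjusted p = 0.716, limma).

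Dusp6 (ENSMUSG00000019960, chromosome 10, 99263231 to 99267489) encodes a phosphatase of ERK. It was at 1946 and 1762 in Control and at 2211 and 2175 in Yap CKO, a mean of 1854 ± 130 against 2193 ± 25.9 (SD, n = 2). Both knockout libraries lay above both controls. The log2 change was 0.24 (0.017 to 0.47) with an adjusted p of 0.237 (limma), at 118% of control. The upper ends of both intervals, 0.43 for Spry2 and 0.47 for Dusp6, lay below the lower end for Fgf10, 0.78, and the differences between these genes were not tested.

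Levels can be compared between genes once divided by length, here the kilobases (kb) of the union of annotated exons. By this length Dusp6 was highest in Control, at 592 ± 41.4 normalized counts per kb, followed by Fgfr2 at 528 ± 31.7 (SD, n = 2). Fgfr1 (268 ± 26.3), Spry2 (265 ± 37.7), Fgf10 (235 ± 33.7) and Fgfr3 (232 ± 54.5) came next, and neighbours in this run overlapped. Fgfr4 (144 ± 2.94) was apart from the group above it. The lowest levels per kb were those of Fgf18 (47.4 ± 12.7), Fgf9 (46.5 ± 3.84) and Fgf7 (14.3 ± 2.95), of which Fgf18 and Fgf9 overlapped.

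In Yap CKO, by the same length, Fgf10 ranked 3 of 10 at 491 ± 9.01 normalized counts per kb, below Fgfr2 (525 ± 25.3) and above Fgfr1 (289 ± 24.7), and its 2 libraries overlapped with neither. Dusp6 was at 700 ± 8.27, the highest, and Fgf7 at 8.75 ± 0.60, the lowest. Fgfr3 (142 ± 30.6) overlapped with Fgfr4 (138 ± 9.07). The order depended on the length used. By the longest transcript and by the shortest coding one, Fgfr2 was highest in both groups and Dusp6 ranked 2 and 3. Fgf10 then ranked 6 in Control and 4 in Yap CKO by either length, with Fgfr1 above it in both groups. Fgf7 was lowest by all 3 lengths.

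**Figure D3:**
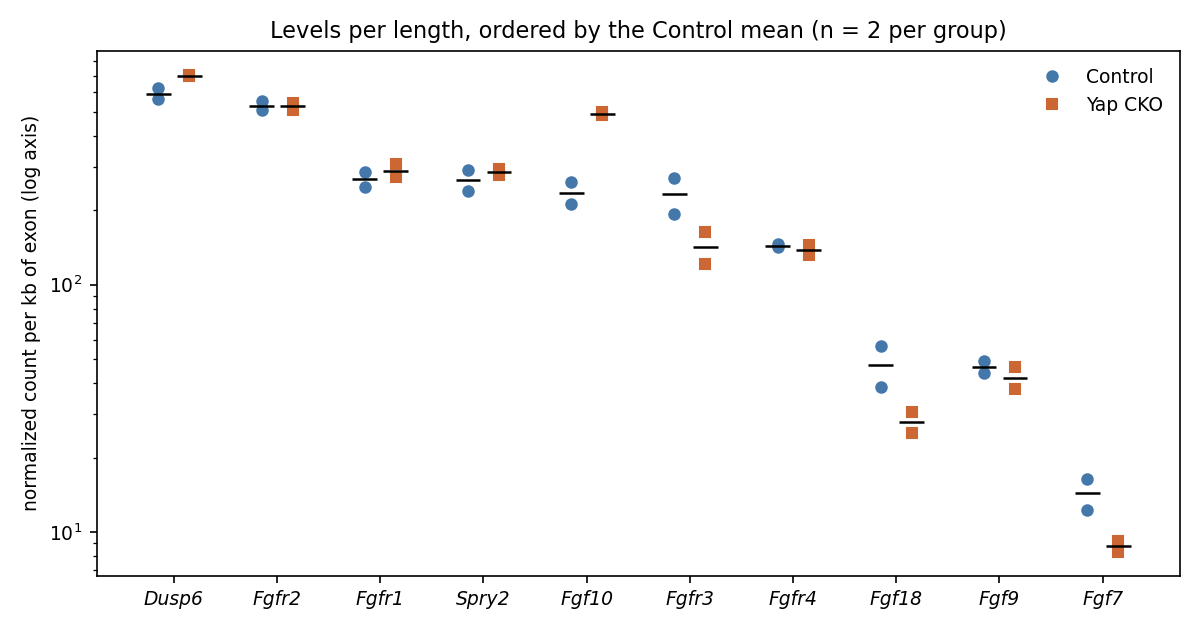
Normalized count per kb of exon (log axis) for the 10 genes in the order of their Control means, 1 point per library, circles for Control and squares for Yap CKO, black lines at the means (n = 2 per group). Fgf10 moves from 235 to 491 per kb, next to Fgfr2, and Fgfr3 from 232 to 142, next to Fgfr4.

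Shares within a library do not depend on how the libraries were scaled. Of the summed level per kb of the 4 ligands, Fgf10 made up 68.0% and 69.1% in Control 1 and 2, and 86.1% and 86.4% in Yap CKO 1 and 2. The share of Fgf18 was 14.8% and 12.6% against 4.34% and 5.45%, that of Fgf9 12.9% and 14.3% against 8.01% and 6.71%, and that of Fgf7 4.31% and 4.002% against 1.59% and 1.48%. A share of one ligand falls where another rises, so these are not separate results. Among the 4 receptors Fgfr2 made up 45.4% and 44.7% in Control and 47.6% and 48.3% in Yap CKO, and Fgfr3 22.4% and 17.1% against 11.3% and 14.6%. With 2 samples against 2, an exact two-sided permutation test cannot give a p below 0.333, so the shares are given without a test.

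The rest of the pathway was followed in 8 lists with 107 genes, of which 94 passed the filter. Of these 3 were called higher and 3 lower, beside 2.33% of all genes, and 88 did not pass. Their median log2 change was -0.097, against -0.005 over all genes. The count moved with that over all genes. It was 28 without Control 2, where 12.7% of all genes were called, and 26 without Control 1 (13.7%). No pathway gene was called without Yap CKO 1 (0.0103%) or without Yap CKO 2 (0.0873%). DESeq2 called 18 (5.54%) and edgeR 4 (2.07%). For each list below, the shares over all genes were 1.19% called higher, 1.15% called lower and 18.9% at an unadjusted p under 0.05.

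None of the 7 other FGF family genes that passed the filter was called by limma, edgeR or DESeq2. They held 0 at an unadjusted p under 0.05, and 11 of the 18 listed were below the filter. The smallest p belonged to Fgf13, which encodes an intracellular FGF homologue. It was at 99.8 and 189 in Control and at 92.3 and 65.2 in Yap CKO (log2 change -0.82, adjusted p = 0.268, limma).

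Co-receptors and binding proteins held no call by limma or edgeR among 7 genes tested, with 2 at an unadjusted p under 0.05 and 1 call in DESeq2. Fgfbp1 encodes a carrier that releases FGFs from the matrix. It was at 111 and 42.1 in Control and at 5.77 and 18.6 in Yap CKO, a log2 change of -2.59 ± 0.65 (SE, adjusted p = 0.103, limma). Its groups were apart, but each varied by more than 2-fold within itself.

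Genes of heparan sulfate, the sugar chain that holds FGF to its receptor, had log2 changes below 0 in 15 of 19 cases, beside 50.6% of all genes. Their median log2 change was -0.35, against -0.005 over all genes. None was called by limma or edgeR, with 10 of 19 at an unadjusted p under 0.05, beside 18.9% of all genes. DESeq2 called 6, all lower, beside 5.54% of all genes in either direction. Hs6st1, which adds sulfate to the chain, had the smallest p. It was at 1373 and 1523 in Control and at 1028 and 1013 in Yap CKO (log2 change -0.50, adjusted p = 0.0607, limma).

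The 17 genes that relay the signal from receptor to ERK showed the narrowest spread of these lists, from -0.31 to 0.11 with a median of -0.058. None was called by limma, edgeR or DESeq2, and 2 had an unadjusted p under 0.05, beside 18.9% of all genes. The adaptor gene Grb2, with the smallest p, was at 1313 and 1520 in Control and at 1164 and 1113 in Yap CKO (adjusted p = 0.197, limma).

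Of the 12 other feedback inhibitors that passed the filter, 1 was called higher and 11 did not pass. Spred3, of the Sprouty-related family that holds back RAS signalling, rose from 325 and 291 in Control to 586 and 488 in Yap CKO (log2 change 0.80 ± 0.14 SE, adjusted p = 0.0488, limma). The call ended under TMM scaling (0.0512), with edgeR (0.0601), without the filter (0.121) or the trend (0.147), and with the replicate block (0.0505), and without Yap CKO 1 (0.439) or Yap CKO 2 (0.239). The phosphatase gene Dusp9 had the smallest p of the others, at 751 and 670 against 450 and 490 (-0.59, adjusted p = 0.0636). Spry4, named after its values were seen as the relative of Spry2, was at 513 and 519 against 498 and 527 (-0.011, adjusted p = 0.972).

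Transcription factors and targets that FGF induces moved both ways. Of 14 genes 2 were called higher, 1 was called lower and 11 did not pass. Id2, a factor of the distal tips, rose from 2449 and 2588 to 4513 and 4237 (0.80 ± 0.09 SE, adjusted p = 0.0146, limma). Bmp4, a ligand made at the tips, rose from 1097 and 1074 to 1554 and 1519 (0.50 ± 0.09, adjusted p = 0.0483, limma). Etv5, an ETS factor induced by FGF, fell from 6099 and 6257 to 2906 and 3632 (-0.93 ± 0.12, adjusted p = 0.0221, limma). Its relative Etv4 was at 406 and 488 in Control and at 862 and 701 in Yap CKO (0.80, adjusted p = 0.0545). Within each library the ratio of Etv5 to Etv4 was 15.02 and 12.8 in Control and 3.37 and 5.18 in Yap CKO, which follows from their changes and is not a separate result. The calls of Id2, Bmp4 and Etv5 ended without Yap CKO 1 (adjusted p of 0.194, 0.418 and 0.191), without Yap CKO 2 (0.137, 0.353 and 0.0921), without the filter (0.0582, 0.116 and 0.0774) and without the trend (0.110, 0.160 and 0.125). That of Bmp4 ended also under TMM scaling (0.0508) and with the replicate block (0.0737).

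None of the 4 splicing regulators was called by limma or edgeR, with 1 at an unadjusted p under 0.05 and 1 call in DESeq2. Esrp2, which helps to make the epithelial splice form of FGFR2, had the smallest p, at 1114 and 921 in Control and at 671 and 727 in Yap CKO (-0.54, adjusted p = 0.0937, limma).

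Of 14 genes known to act on Fgf10 in the mesenchyme, 2 were called lower, beside 1.15% of all genes, and 12 did not pass. Shh, the epithelial hedgehog ligand known to hold Fgf10 back, fell from 1069 and 906 in Control to 212 and 345 in Yap CKO (-1.86 ± 0.23 SE, adjusted p = 0.0181, limma). Ptch1, its receptor and target, fell from 10176 and 8744 to 5084 and 6169 (-0.75 ± 0.13, adjusted p = 0.0435). Without Yap CKO 1 the adjusted p was 0.0957 for Shh and 0.381 for Ptch1, and without Yap CKO 2 it was 0.05002 and 0.183. Without the filter these were 0.0770 and 0.121, and without the trend 0.114 and 0.167. The call of Ptch1 ended also under equal totals (0.0547), with edgeR (0.0523) and with the replicate number as a block (0.0622). The normalized count of Fgf10 was 1.12 and 1.07 times that of Shh in Control 1 and 2, and 10.8 and 6.47 times in Yap CKO 1 and 2, without regard to length. This ratio follows from the changes of both genes and is not a separate result. Isl1 was at 44.6 and 125 in Control and at 485 and 306 in Yap CKO (2.35, adjusted p = 0.0636). The GLI genes of the list, named after their values were seen, were not called. Gli1 was at 3177 and 2811 in Control and at 2856 and 2999 in Yap CKO (-0.030, adjusted p = 0.901, limma). Gli2 changed by -0.091 and Gli3 by 0.23. The part of any of these genes in the value of Fgf10 was not tested.

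**Figure D4:**
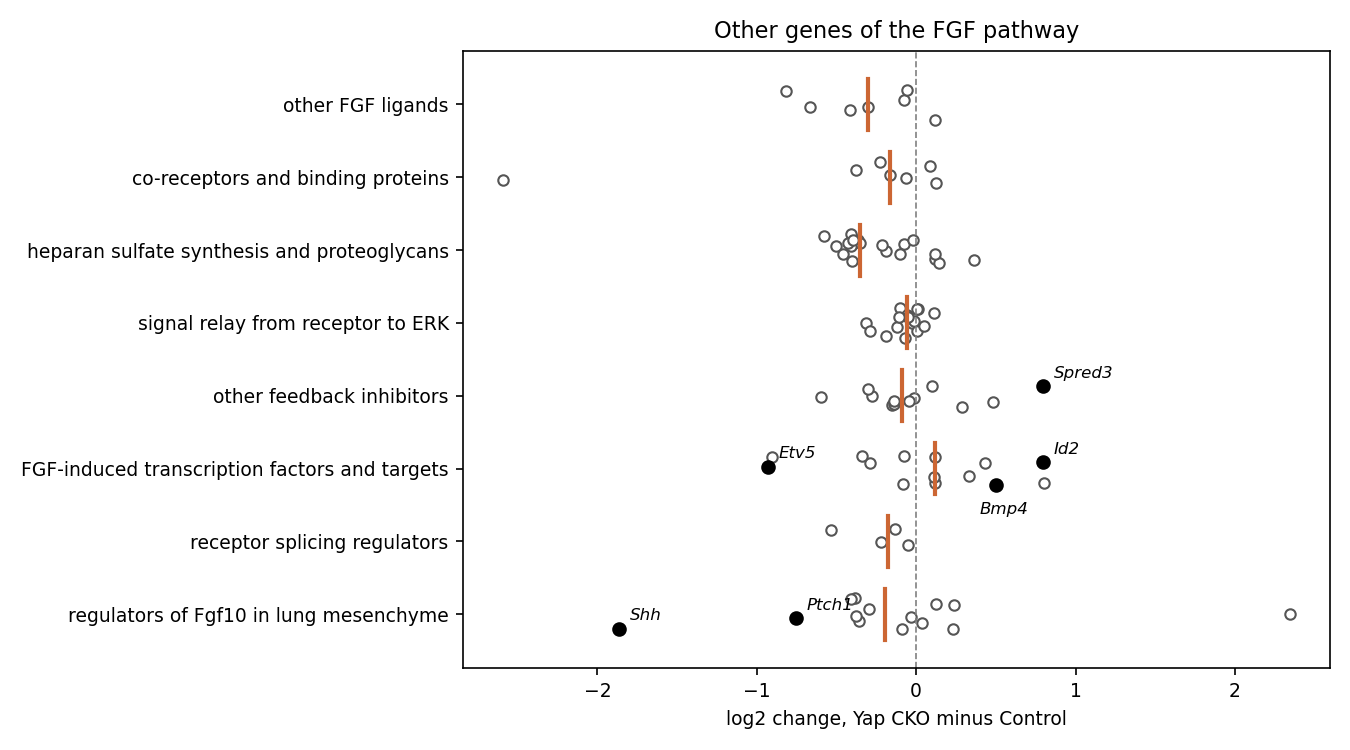
Log2 change (horizontal axis, Yap CKO minus Control) of the 94 other pathway genes that passed the filter, by list, with filled points for an adjusted p under 0.05, open points for the rest and a coloured bar at each list's median. The filled points are Spred3, Etv5, Bmp4, Id2, Shh and Ptch1, and the heparan sulfate genes center on -0.35.

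The protein-coding genes whose pattern over the 4 libraries came nearest to that of Fgf10 were Gch1, Stab2 and Rnf152. Likeness was the root mean square distance between log2 values centred on each gene's mean, over 14538 genes, and was 0.043, 0.050 and 0.050. Gch1 was at 51.4 and 40.9 in Control and at 106 and 96.9 in Yap CKO. Stab2 was at 173 and 139 against 318 and 297, and Rnf152 at 458 and 361 against 802 and 809. With 4 libraries such likeness says only that these genes were higher in the same samples, with Control 1 above Control 2.

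**Figure D5:**
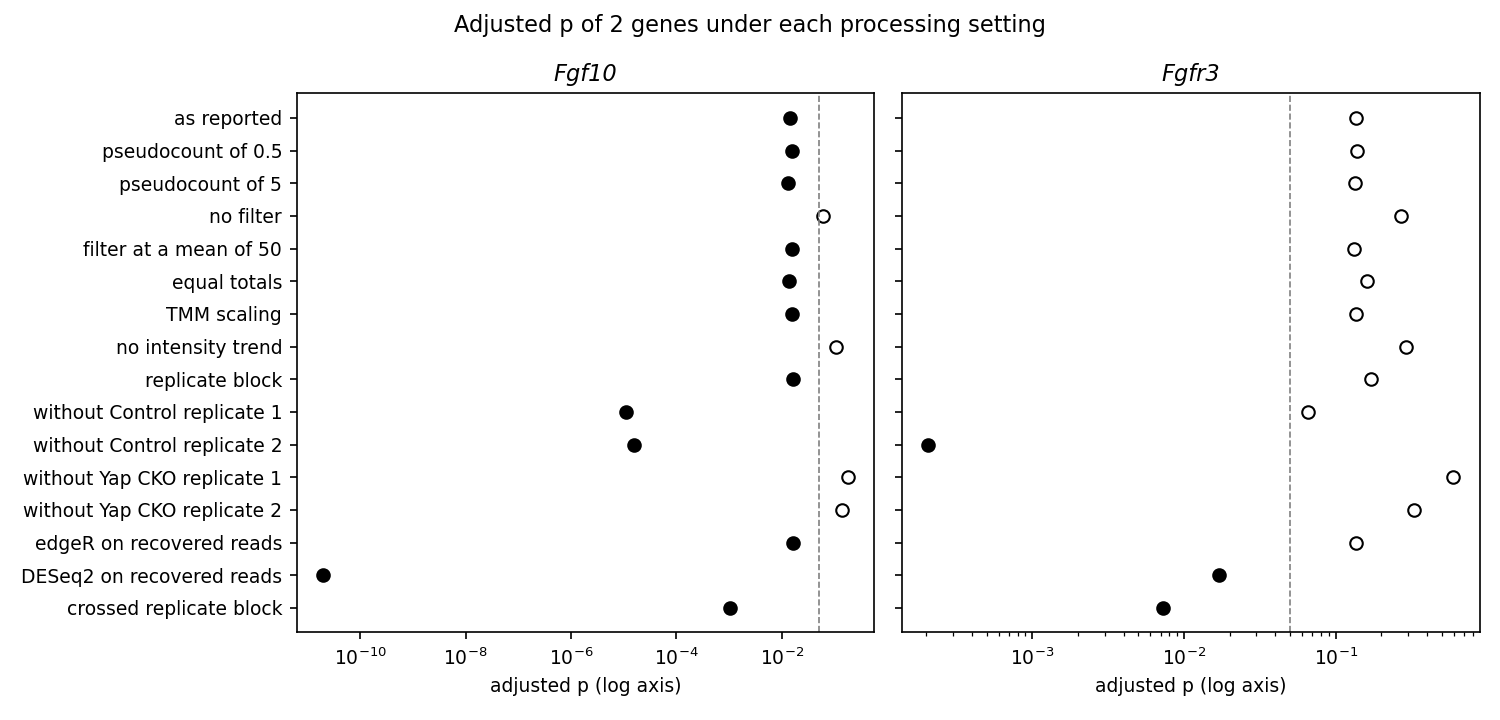
Adjusted p (horizontal log axis) of Fgf10 and Fgfr3 under each processing setting, filled below 0.05 (dashed line). Fgf10 is filled as reported (0.0146) and open without the filter, without the trend and without either knockout library, and Fgfr3 is filled only without Control 2 (2.06e-04), in DESeq2 (0.017) and with crossed replicate numbers as a block (0.00726).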

How the data were processed

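RNA of whole embryonic lungs was sequenced in 2 Control and 2 Yap CKO samples, grouped by their titles in the labels. The deposited values are a non-negative signal, read counts per gene that the authors had divided by 1 factor per library. Per the submitters' processing notes, which give no role or order, the build was mm10 and the tools included edgeR 3.18.1 and DESeq 1.16.0 beside featureCounts 1.5.0-p1 and Bowtie2 2.2.9. The annotation release and strand setting are not given in the sources used here, so reads of overlapping antisense genes cannot be separated. Such partners of Fgf10, Fgfr1 and Fgfr3 held at most 23 reads in a library. Within each library 100% of values were within 0.001 of a whole multiple of what 1 read is worth, so whole reads were recovered (21285794, 17756301, 20552208 and 21333878). Within a group, counts differed beyond counting noise (chi-square per degree of freedom 22.1 in Control, 6.64 in Yap CKO).

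Identifiers were matched to GENCODE M21 (GRCm38, the assembly of mm10), with 52489 of 52636 found. Promoters came from RefSeq (GRCm38.p6). Values were transformed to log2(normalized count + 1), filtered at a mean of 10 and tested with limma 3.58.1 in R 4.3.3 (trended prior, two-sided, 2 residual and 4.54 prior degrees of freedom). Alternatives were other pseudocounts, filters and scalings, a replicate block, leaving out each library, edgeR 4.0.16 and DESeq2 1.42.0 on recovered reads. The text names all 10 FGF genes, the called genes and the not-called gene of smallest p in each pathway list, and the 3 nearest patterns. Members and lists were chosen with earlier results of these data known.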

Additional observations from a re-analysis of the deposited data

How the results depend on the processing

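The number of genes called over the whole table was 454 and fell to 56 without the filter and to 6 without the intensity trend. DESeq2 called 1037, and leaving out 1 library at a time gave 2 to 2665, with the high counts without a control and the low ones without a knockout library. The lone sample left in a group is then assumed to vary like the other group. Of the FGF genes 1 was called as reported, 0 without the filter or the trend, 2 in DESeq2 and 0 to 2 with a library left out. Of the pathway genes 6 were called as reported, 0 without the filter or the trend, 18 in DESeq2 and 0 to 28 with a library left out. With the replicate number as a block 1 FGF gene (Fgf10, adjusted p = 0.0165, limma), 3 pathway genes and 342 genes in all were called. Nothing in the labels says that the numbers pair samples, and the deviations of Control 1 and Yap CKO 1 from their group means had a correlation of -0.364 over 19472 genes. A block with the numbers crossed, added after seeing the data, called 2 FGF genes, 13 pathway genes and 972 genes in all. The cause of these differences was not tested.

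Fgf10 kept its direction in all alternatives (0.92 to 1.22). Signs changed for genes near 0. Under equal totals Fgfr2 was at 0.055 and Fgfr4 at 0.0076. With a library left out, Fgfr2 ranged from -0.069 to 0.054, Fgfr4 from -0.12 to 0.012 and Spry2 from -0.037 to 0.25. Without a change of sign, Fgf7 ranged from -0.89 to -0.47, Fgf9 from -0.30 to -0.0024, Fgf18 from -1.0005 to -0.46, Fgfr1 from 0.011 to 0.21, Fgfr3 from -0.95 to -0.46 and Dusp6 from 0.17 to 0.32. By the longest transcript and by the shortest coding one, the Fgf10 share of the ligands was 67.1% and 50.5% in Control and 85.2% and 72.5% in Yap CKO. The Fgfr2 share of the receptors was 53.5% and 57.1% in Control and 56.2% and 59.6% in Yap CKO. By the shortest coding transcript the Fgfr3 share was 16.0% and 10.3%. Fgf7 and Fgf18 rest on 29 to 69 reads in a library.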

Other observations

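Fgf20, a ligand of the same subfamily as Fgf9, stayed below the filter and is named after its values were seen. It held 1 and 5 reads in Control 1 and 2, and 17 and 13 in Yap CKO 1 and 2. These are 0.97, 5.85, 16.3 and 12.1 normalized counts, and no test was made.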
